A study of Rattus norvegicus with 12 samples.

Results

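The genes described here are the subunits, activators, inhibitor and assembly chaperones of the proteasome. The members are the gene symbols made of Psm, a letter from a to g and a number, without the interferon-induced subunits Psmb8, Psmb9 and Psmb10. Of 17312 symbols in every library, 49 had this form, 3 were set aside and 46 remained. The data were RNA sequencing of ventricular cardiomyocytes, the contractile cells of the heart, cultured from newborn Wistar rats. The 12 libraries formed 4 groups of 3: cells under stretch with an siRNA that targets the secreted signalling protein Wnt5a (stretched Wnt5a siRNA), control siRNA and stretch (stretched control), Wnt5a siRNA without stretch (unstretched Wnt5a siRNA), and control siRNA without stretch (unstretched control). All groups therefore carried an siRNA. The sources used here do not give the strength or duration of the stretch, nor whether libraries of a group came from separate cultures. The p-values therefore rest on library-to-library spread, part or all of which may be technical.

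The proteasome is the protease that breaks down proteins marked with ubiquitin in the cytosol and the nucleus. Its core particle is a barrel of outer alpha rings, which gate the entry, and inner beta rings, in which Psmb5, Psmb6 and Psmb7 carry the cleaving sites. A regulatory cap sits on the barrel: a ring of ATPases, the Psmc proteins, unfolds the substrate, and the non-ATPase Psmd subunits bind it and remove its ubiquitin. In heart muscle the proteasome turns over contractile and regulatory proteins, and its subunit genes are known to be raised together by the transcription factor Nfe2l1, which is not analysed here.

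Levels are the authors' FPKM, fragments scaled to transcript length and library size, and are given as mean ± SD over 3 libraries. Log2 changes are on the log2(FPKM + 1) scale with their SE, and every adjusted p is from limma with Benjamini-Hochberg adjustment over 10518 genes, with 0.05 as the threshold for "rose", "fell" and "called". Of the 46 members, 44 were in that test. The testis alpha subunit Psma8 and the thymus beta subunit Psmb11 stayed under the filter on low values, at no more than 0.145 and 0.200 FPKM in any library. The members fell into 9 genes of the alpha ring, 8 of the beta ring, 6 ATPases, 11 non-ATPase subunits, 5 alternative activators with the inhibitor Psmf1, and 6 assembly chaperones. Psmc3ip matched by its symbol, but encodes a cofactor of meiotic recombination. In unstretched control cells the mean levels of the beta ring genes without Psmb11 lay between 129 and 218 FPKM, with a median of 163. The tested alpha ring genes had a median of 141, the ATPases of 97.3 and the non-ATPase subunits of 84.6 FPKM. The chaperones had a median of 26.2 FPKM. The highest level of any member was that of Psme1, a subunit of the activator called PA28, at 394 ± 19.1 FPKM.

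Several features of the libraries touch the values that follow. Summed FPKM ran from 619742 to 659933 in the stretched Wnt5a siRNA, 676014 to 709021 in the stretched control, 575161 to 607276 in the unstretched Wnt5a siRNA and 588509 to 598628 in the unstretched control libraries, and FPKM hold no read numbers, so the depth is unknown. A second scale, called rescaled here, sets each library to a sum of 1000000 before the log. On it the median log2 change of all genes was -0.20 with stretch in control siRNA cells and 0.11 when the siRNAs were compared under stretch, against 0.01 and 0.00 on the FPKM scale, so FPKM and rescaled values are given side by side. Wnt5a itself was at 6.22, 5.88 and 5.56 FPKM in stretched Wnt5a siRNA, 6.52, 5.66 and 8.22 in stretched control, 6.15, 4.60 and 6.81 in unstretched Wnt5a siRNA and 12.3, 10.4 and 11.6 in unstretched control libraries. In unstretched cells it was lower with its siRNA than with control siRNA, with a log2 change of -0.87 ± 0.14 (adjusted p = 0.00142). In stretched cells the change between the siRNAs, -0.17 ± 0.14, did not pass the test (adjusted p = 0.387). With control siRNA, Wnt5a fell with stretch, with a log2 change of -0.68, and of -0.92 after rescaling, and both passed. With Wnt5a siRNA its change with stretch was 0.02 and did not pass. Stretched control library 3 stood apart: its log2 values differed from those of the other stretched control libraries with an SD of 0.393 and 0.426, against 0.205 to 0.288 for all other pairs within a group. Counts are therefore also given without it.

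All 11 listed cardiomyocyte markers passed the filter, with Tnnt2, a thin filament protein, at 3969 to 6329 FPKM across the libraries. Their summed FPKM was 22346 ± 3827 in stretched Wnt5a siRNA, 33984 ± 6447 in stretched control, 22178 ± 1912 in unstretched Wnt5a siRNA and 28644 ± 1463 in unstretched control cells (SD, n = 3 each). The actin gene Actc1 contributed 16845 ± 2841 FPKM to the sum in stretched control and 8339 ± 60.9 in unstretched control cells, while Myh6, a myosin heavy chain, was at 1621 ± 743 FPKM in stretched control and 3685 ± 277 in unstretched control cells. Of the 11 markers 3 rose and 4 fell with stretch and control siRNA, with a median log2 change of -0.21, and 1 rose and 6 fell after rescaling. The summed FPKM of the 10 listed fibroblast markers was 9101, 8781 and 9401 in stretched Wnt5a siRNA, 4799, 4841 and 8308 in stretched control, 5211, 5347 and 5497 in unstretched Wnt5a siRNA and 3464, 3969.8 and 3628 in unstretched control libraries. Col1a2, which is in that list, was listed at 0 throughout. The summed macrophage and leukocyte markers were at 340.1, 356 and 375 FPKM in stretched Wnt5a siRNA, 296, 302 and 495 in stretched control, 142, 136 and 148 in unstretched Wnt5a siRNA and 162, 205 and 166 in unstretched control libraries. With stretch and control siRNA, 6 of 9 tested fibroblast markers and 7 of 9 tested macrophage and leukocyte markers rose. After rescaling 4 of these fibroblast markers rose and 1 fell, and 3 of the macrophage and leukocyte markers rose. Stretched control library 3 had the highest of both sums within its group. Its summed cardiomyocyte markers were the lowest of the group, at 26742 FPKM against 36110 and 39100 in libraries 1 and 2. The same held for its summed smooth muscle and pericyte markers, at 2619 FPKM against 4665 and 4077. The summed endothelial markers, of which Vwf stayed under the filter, were at 56.1 ± 14.6 FPKM in stretched Wnt5a siRNA, 27.1 ± 5.51 in stretched control, 19.2 ± 8.50 in unstretched Wnt5a siRNA and 22.9 ± 7.74 in unstretched control cells (SD, n = 3 each), and 1 of 7 tested rose with stretch and control siRNA. Of 8 smooth muscle and pericyte markers 2 rose and 2 fell in that comparison. After rescaling 0 of the 7 endothelial markers rose and 1 fell, and 1 of the 8 smooth muscle and pericyte markers rose and 2 fell. In such bulk samples fewer cells of a type and less RNA per cell cannot be told apart, and the part of these markers in the results below was not tested.

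With stretch and control siRNA all 17 cap subunits and 13 of 15 tested core particle genes rose on the FPKM scale, while after rescaling 11 cap subunits and 3 core particle genes rose. Of the 44 tested members 33 rose, while 27.5% of all tested genes rose, and 4 fell, while 26.8% of all genes fell. The median log2 change was 0.35 over the members and 0.01 over all genes. On the rescaled scale 17 members rose and 6 fell, while 13.8% of all genes rose and 42.8% fell, and the medians were 0.12 for the members and -0.20 for all genes. Without stretched control library 3 the counts were 34 rises and 4 falls, and 16 rises and 6 falls after rescaling. Of all 10518 genes, 3075 rose and 2960 fell without that library, and 1511 rose and 4757 fell after rescaling. All 4 falls of members on the FPKM scale belonged to the alternative activators and Psmf1.

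**Figure D1:**
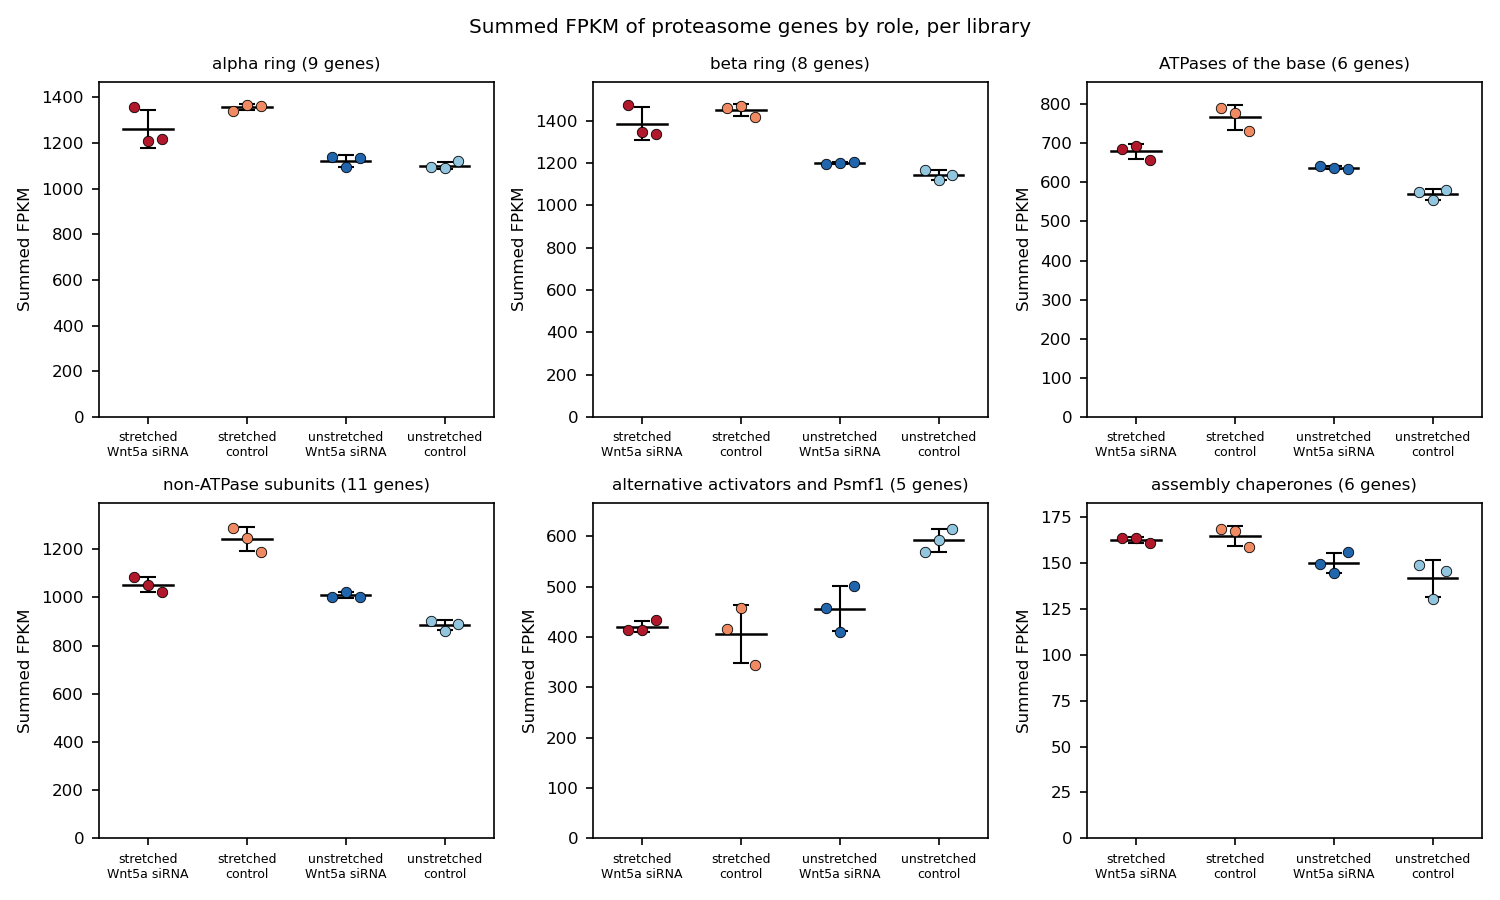
Summed FPKM of the members by role class in each of the 12 libraries (points) with the group mean (bar) and SD (error bar). The ATPases and the non-ATPase subunits are highest in the stretched control libraries, while the sum of the alternative activators and Psmf1 is highest in the unstretched control libraries, at 568, 593 and 614 FPKM.

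The summed level of the 17 cap subunits was 2008 ± 80.8 FPKM in stretched control and 1454 ± 33.2 in unstretched control cells (SD, n = 3 each). All 17 rose, and in all 17 the 3 stretched control libraries lay above the 3 unstretched control libraries, an order that 29.0% of all tested genes showed. After rescaling, 11 of the 17 rose. The core particle, 15 tested genes, was at 2807 ± 29.0 FPKM in stretched control and 2244 ± 30.0 in unstretched control cells, with 13 rises, of which 3 passed after rescaling.

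The ATPases unfold substrates and thread them into the barrel. Their 6 genes rose with a median log2 change of 0.41. Psmc4 had 143, 133 and 124 FPKM in stretched control and 94.7, 89.0 and 95.7 in unstretched control libraries, the largest change among the ATPases at 0.52 ± 0.07 (adjusted p = 6.00e-05). Psmc3 had 172, 167 and 157 FPKM in stretched control and 126, 122 and 120.5 in unstretched control libraries, a change of 0.43 ± 0.06 (adjusted p = 6.19e-05). In both genes every stretched control library was above every unstretched control library. Psmc6, with the smallest change of the 6, had 67.5, 67.8 and 64.4 FPKM in stretched control and 52.0, 50.4 and 51.2 in unstretched control libraries, a change of 0.37 ± 0.07 (adjusted p = 0.000470), and it was the ATPase that did not pass after rescaling (0.15 ± 0.07, adjusted p = 0.0978). Its groups did not overlap.

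The non-ATPase subunits held the largest rises of all members, with 11 of 11 called and a median log2 change of 0.46. Psmd8, a subunit of the lid, had 203, 194 and 153 FPKM in stretched control and 117, 99.1 and 106 in unstretched control libraries, a change of 0.76 ± 0.10 (adjusted p = 7.31e-05) and of 0.53 ± 0.09 after rescaling (adjusted p = 0.000278). Library 3 was the lowest of the stretched control libraries, and the groups did not overlap. Psmd14, the deubiquitinase that takes the ubiquitin chain off the substrate, had 80.0, 73.1 and 77.8 FPKM in stretched control and 51.8, 47.6 and 48.2 in unstretched control libraries, a change of 0.64 ± 0.07 (adjusted p = 2.52e-05). Psmd12, a scaffold subunit of the lid, had 130.0, 134 and 124 FPKM in stretched control and 89.3, 79.2 and 85.2 in unstretched control libraries, a change of 0.61 ± 0.06 (adjusted p = 8.02e-06). The groups did not overlap in either gene, and both passed after rescaling. Psmd13, another lid subunit, had the smallest change, with 134, 126 and 117 FPKM in stretched control and 104, 96.3 and 107 in unstretched control libraries, a change of 0.29 ± 0.06 (adjusted p = 0.00228). It did not pass after rescaling (0.07 ± 0.06, adjusted p = 0.351). The large scaffold subunits of the base, Psmd1 and Psmd2, rose by 0.49 ± 0.06 (adjusted p = 3.06e-05) and 0.46 ± 0.05 (adjusted p = 2.01e-05) on the log2 scale.

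In the beta ring 7 of 7 tested genes rose, with a median log2 change of 0.34. Psmb5, which carries the chymotrypsin-like site, had 209.7, 212 and 205 FPKM in stretched control and 151, 151 and 149 in unstretched control libraries, a change of 0.47 ± 0.06 (adjusted p = 2.85e-05). Psmb7, which carries the trypsin-like site, had 217, 207 and 207 FPKM in stretched control and 170.1, 154 and 170.5 in unstretched control libraries, a change of 0.35 ± 0.06 (adjusted p = 0.000491). Psmb6, which carries the caspase-like site, had 200.3, 208 and 186 FPKM in stretched control and 166, 160.2 and 163 in unstretched control libraries, a change of 0.28 ± 0.06 (adjusted p = 0.00140). All 3 catalytic genes were higher in every stretched control library than in any unstretched control library. After rescaling, Psmb5 passed (0.24 ± 0.05, adjusted p = 0.00191), while Psmb6 (0.05 ± 0.05, adjusted p = 0.433) and Psmb7 (0.12 ± 0.06, adjusted p = 0.0953) did not. Psmb4, a beta subunit without a cleaving site, had 235, 245 and 239 FPKM in stretched control and 186, 184 and 184 in unstretched control libraries, a change of 0.37 ± 0.06 (adjusted p = 0.000298), and it also passed after rescaling. Psmb1, another such subunit, had 262, 267 and 263 FPKM in stretched control and 225, 207 and 221 in unstretched control libraries, a change of 0.28 ± 0.06 (adjusted p = 0.00237). It did not pass after rescaling, where 2 of the 7 beta ring genes, Psmb4 and Psmb5, rose.

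In the alpha ring 6 of 8 tested genes rose, with a median log2 change of 0.30. Psma2 had the largest change, with 189.5, 196 and 217 FPKM in stretched control and 148, 148 and 154 in unstretched control libraries, a change of 0.42 ± 0.07 (adjusted p = 0.000407) without overlap, and was the alpha gene that passed after rescaling (adjusted p = 0.0464). Psma6 had the smallest, with 202, 217 and 196 FPKM in stretched control and 195, 182 and 184 in unstretched control libraries, a change of 0.13 ± 0.07 that did not pass (adjusted p = 0.142). Psma3 and Psma3l are separate rows of the data but 1 gene in the current RefSeq annotation, in which Psma3l is a synonym, so how fragments were split between them is uncertain. All counts of members, core particle genes and alpha ring genes given here hold both rows. Their sum was 260.1, 264.5 and 263 FPKM in stretched control and 200.8, 200.8 and 215 in unstretched control libraries, a log2 change of 0.35 ± 0.07 (adjusted p = 0.00101). After rescaling the sum did not pass (0.13, adjusted p = 0.136). As separate rows, Psma3l had a change of 0.38 ± 0.07 (adjusted p = 0.000591) and Psma3 one of 0.19 ± 0.10 (adjusted p = 0.121).

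The alternative activators dock on the barrel in place of the cap, and they did not move as 1 group. Psme1 and Psme2 form the ring of PA28 in the cytosol, which interferon is known to raise. Psme1 had 246, 279.9 and 183 FPKM in stretched control and 373, 399 and 411 in unstretched control libraries, and it fell, with a log2 change of -0.76 ± 0.14 (adjusted p = 0.000532). Psme2 had 46.2, 45.1 and 40.7 FPKM in stretched control and 52.2, 52.9 and 50.1 in unstretched control libraries, and it fell, with a change of -0.23 ± 0.07 (adjusted p = 0.0156). Both were lowest in stretched control library 3, and neither overlapped between the groups. Psme4, the large activator called PA200, had 49.8, 57.5 and 53.0 FPKM in stretched control and 74.4, 76.5 and 84.8 in unstretched control libraries, and it fell, with a change of -0.55 ± 0.09 (adjusted p = 0.000315). Psmf1, a protein that inhibits the core particle in the test tube, had 24.3, 25.9 and 21.2 FPKM in stretched control and 29.9, 29.7 and 32.1 in unstretched control libraries, and it fell, with a change of -0.35 ± 0.10 (adjusted p = 0.00915). Psme3 forms a separate activator of the nucleus. It had 50.6, 48.9 and 45.9 FPKM in stretched control and 38.4, 35.2 and 36.2 in unstretched control libraries, and it rose by 0.40 ± 0.07 (adjusted p = 0.000333). After rescaling, all 5 genes were called in the same direction, and so they were without stretched control library 3.

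The chaperones help to build the ring of ATPases (Psmd5, Psmd9 and Psmd10) and the core particle (Psmg1, Psmg2 and Psmg4), and 2 of 6 rose. Psmd5 had 35.9, 35.1 and 35.8 FPKM in stretched control and 24.7, 23.9 and 26.3 in unstretched control libraries, a change of 0.50 ± 0.08 (adjusted p = 0.000265). Psmd9 had 26.5, 27.2 and 23.6 FPKM in stretched control and 19.2, 16.2 and 19.3 in unstretched control libraries, a change of 0.48 ± 0.10 (adjusted p = 0.00113). Both passed after rescaling. Psmg4 had the lowest change of the class, -0.10 ± 0.08 (adjusted p = 0.350), with 30.3, 30.7 and 33.3 FPKM in stretched control and 32.9, 30.9 and 37.6 in unstretched control libraries, and it fell after rescaling (-0.32 ± 0.09, adjusted p = 0.00965). Psmd10 (0.13 ± 0.24, adjusted p = 0.663), Psmg1 (0.22 ± 0.09, adjusted p = 0.0578) and Psmg2 (0.07 ± 0.11, adjusted p = 0.615) did not pass. Psmc3ip, the recombination cofactor, did not pass either (-0.06 ± 0.11, adjusted p = 0.656), but fell after rescaling.

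**Figure D2:**
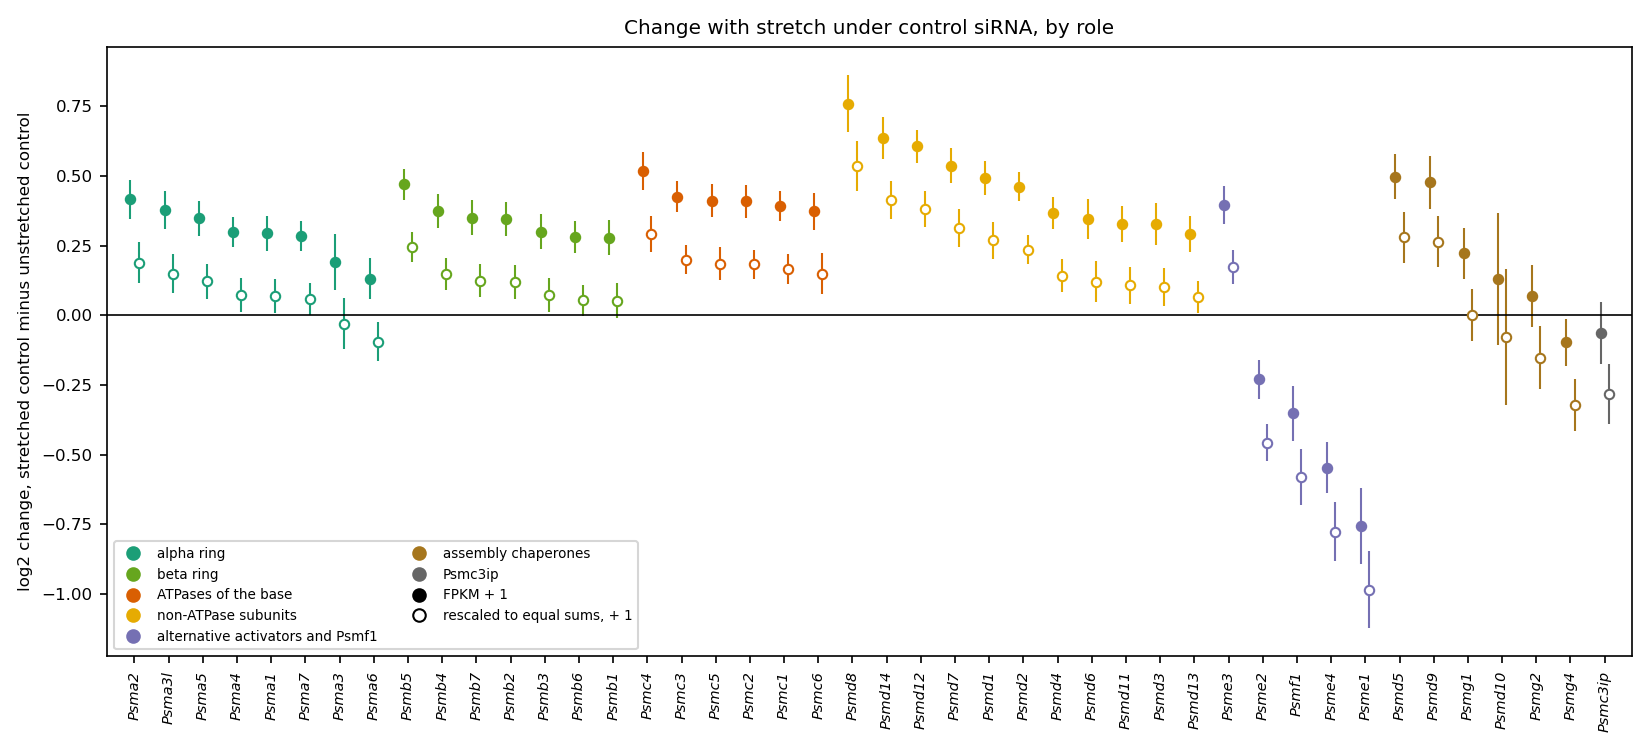
Log2 change with stretch in control siRNA cells for the 44 tested members, by role class, on the FPKM scale (filled points) and after rescaling to equal library sums (open points), with error bars of 1 SE. Cap subunits lie between 0.29 and 0.76 on the FPKM scale, and Psme1, Psme2, Psme4 and Psmf1 lie below 0 on both scales.

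Promoters of the members were read from RefSeq with the build GRCr8. This is not the build of the deposited values, so the coordinates serve the sequences alone. Of the members, 40 matched a window of their own from 250 bases before to 50 bases after the start, with Psma3l sharing that of Psma3. The antioxidant response element, the motif that Nfe2l1 and Nfe2l2 are known to bind, was searched on both strands as TGACNNNGC. It was present in 8 of the 40 windows (20%) and in 12.2% of 27457 windows in the table. The 8 belonged to Psma3, Psmb2, Psmb5, Psmb6, Psmd1, Psmd3, Psmd9 and Psme4. The CCAAT box, searched as CCAAT on both strands, was present in 47.5% of the members' windows and 37.7% of all windows. The interferon response element, searched on both strands as GAAA, any bases NN and GAAA again, was present in 5 of 40 (12.5%) and in 3.77% of all windows, namely those of Psma4, Psmb3, Psmd7, Psme2 and Psmg4. Matches of different motifs overlapped in 1 of the 40 windows. A match describes letters and not a bound site. The 250 bases before the start are shown for Psmb5 (chr15:32047380-32047629, minus strand), Psmb6 (chr10:55737638-55737887, plus strand) and Psmd1 (chr9:94157721-94157970, plus strand), which rose and hold the antioxidant motif. They are also shown for Psme4 (chr14:108706393-108706642, plus strand), which holds it and fell, and for Psme2 (chr15:33052752-33053001, minus strand), which holds the interferon motif and fell. Each runs 5′ to 3′ on the strand of the gene, and capitals mark the motif, which in Psme4 lies on the other strand. The first motif base is 60, 24, 165, 55 and 53 bases before the start in this order, and the further match of Psmd1 lies 23 bases after it, beyond the stretch shown.
Psmb5: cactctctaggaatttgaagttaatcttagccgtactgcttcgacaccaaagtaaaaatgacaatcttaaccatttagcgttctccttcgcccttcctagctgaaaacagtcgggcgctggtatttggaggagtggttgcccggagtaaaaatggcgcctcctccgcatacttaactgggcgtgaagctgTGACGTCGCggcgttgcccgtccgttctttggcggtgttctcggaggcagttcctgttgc
Psmb6: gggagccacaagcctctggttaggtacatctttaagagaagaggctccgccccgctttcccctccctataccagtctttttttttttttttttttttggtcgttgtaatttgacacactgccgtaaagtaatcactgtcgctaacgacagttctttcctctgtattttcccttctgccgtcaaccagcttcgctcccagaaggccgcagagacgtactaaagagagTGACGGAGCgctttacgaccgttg
Psmd1: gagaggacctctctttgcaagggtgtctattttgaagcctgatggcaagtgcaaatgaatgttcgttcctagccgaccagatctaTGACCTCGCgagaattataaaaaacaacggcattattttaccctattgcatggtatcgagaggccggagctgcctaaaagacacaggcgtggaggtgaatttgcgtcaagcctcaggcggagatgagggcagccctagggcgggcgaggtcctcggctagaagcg
Psme4: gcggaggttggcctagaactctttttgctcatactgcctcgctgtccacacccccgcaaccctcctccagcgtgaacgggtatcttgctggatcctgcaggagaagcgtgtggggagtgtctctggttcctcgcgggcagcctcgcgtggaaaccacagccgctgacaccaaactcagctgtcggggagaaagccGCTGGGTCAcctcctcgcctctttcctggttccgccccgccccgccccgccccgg
Psme2: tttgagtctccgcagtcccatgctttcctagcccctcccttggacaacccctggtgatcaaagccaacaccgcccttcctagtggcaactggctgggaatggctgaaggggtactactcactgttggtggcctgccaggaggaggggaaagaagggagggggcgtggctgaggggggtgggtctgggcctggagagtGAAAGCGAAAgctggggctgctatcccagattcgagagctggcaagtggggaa

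With Wnt5a siRNA, fewer members were called with stretch. Of 44 members 5 rose and 0 fell by limma's adjusted p, while 8.44% of all genes rose and 7.59% fell, and the median log2 change was 0.11 for the members and -0.01 for all genes. At an unadjusted p under 0.05, 0 members were lower. The 5 were Psma7 of the alpha ring and Psmb3, Psmb4, Psmb5 and Psmb7 of the beta ring, all in the core particle, and 0 of 17 cap subunits rose, with 4 of the 17 higher at an unadjusted p under 0.05. With the replicate number as a block the same 5 were called. After rescaling, Psmb4 rose while 4.73% of all genes did, Psmd3 and Psmd13 fell while 16.7% of all genes did, and the median of the members was -0.011 against -0.12 for all genes. Without stretched control library 3, which enters this fit through the estimate of the spread, 11 members rose, while 1329 of 10518 genes did. These 11 were 3 alpha ring genes, 5 beta ring genes and, of the cap, 1 ATPase and 2 non-ATPase subunits. With the compared groups alone the cap subunit Psmd7 was called besides the 5, so the absence of cap subunits depended on the fit. In this comparison 7 of 9 tested fibroblast markers and 9 of 9 tested macrophage and leukocyte markers rose, as did 5 of 7 tested endothelial markers (median log2 change of 1.42), while 1 fibroblast marker and 4 of 11 cardiomyocyte markers fell. Of 8 smooth muscle and pericyte markers 2 rose and 3 fell, and the part of all these markers in the result was not tested.

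Psmb4 had 262, 234 and 227 FPKM in stretched Wnt5a siRNA and 192, 193 and 181 in unstretched Wnt5a siRNA libraries, a change of 0.35 ± 0.06 (adjusted p = 0.00321). Psma7 had 243, 226 and 230.0 FPKM in stretched Wnt5a siRNA and 196, 200.3 and 205 in unstretched Wnt5a siRNA libraries, a change of 0.21 ± 0.05 (adjusted p = 0.0166). In both genes all stretched libraries were above all unstretched ones. Psmb5 had 197, 184 and 182 FPKM in stretched Wnt5a siRNA and 153, 169 and 162 in unstretched Wnt5a siRNA libraries, a change of 0.22 ± 0.06 (adjusted p = 0.0194), and Psma7 and Psmb5 did not pass after rescaling. Leaving out stretched or unstretched Wnt5a siRNA library 1 left 1 rise, and leaving out unstretched Wnt5a siRNA library 2 or 3 left 3.

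The test of the difference itself, the change with stretch under Wnt5a siRNA minus that under control siRNA, was passed by 21 members. It was lower for 18, while 12.1% of all genes were lower, and higher for 3, while 11.7% of all genes were higher. After rescaling it was lower for 10 (7.75% of all genes) and higher for 4 (15.3%). Without stretched control library 3 it was lower for 22 members (1905 of 10518 genes) and higher for 2 (1733 genes). After rescaling it was then lower for 13 members (1181 genes) and higher for 4 (2359 genes). Most of the lower values were in the cap, where 6 of 6 ATPases and 10 of 11 non-ATPase subunits passed, the exception being Psmd6 (-0.25 ± 0.10, adjusted p = 0.0990). After rescaling 2 of 6 ATPases and 7 of 11 non-ATPase subunits passed. In the core particle Psmb5 alone was lower (-0.25 ± 0.08, adjusted p = 0.0398) and 0 of 8 alpha ring genes, with 2 of them lower at an unadjusted p under 0.05. With the replicate number as a block Psmb5 did not pass (adjusted p = 0.0535), and after rescaling 0 core particle genes passed limma's test, with 0 higher and 0 lower at an unadjusted p under 0.05. Without stretched control library 3, 1 of 8 alpha ring and 3 of 7 beta ring genes were lower, and 0 of either ring after rescaling. Whether the cap and the core particle differ in this was not tested.

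Psmd8 had 149.7, 137 and 127 FPKM in stretched Wnt5a siRNA, 203, 194 and 153 in stretched control, 129.7, 138 and 126 in unstretched Wnt5a siRNA and 117, 99.1 and 106 in unstretched control libraries. The stretched control libraries were the highest and the unstretched control libraries the lowest, and the difference between the changes was -0.69 ± 0.15 (adjusted p = 0.00701). Psmd12 had 92.5, 97.5 and 96.1 FPKM in stretched Wnt5a siRNA, 130.0, 134 and 124 in stretched control, 88.9, 91.5 and 93.4 in unstretched Wnt5a siRNA and 89.3, 79.2 and 85.2 in unstretched control libraries, a difference of -0.54 ± 0.08 (adjusted p = 0.00218). For Psmd12 the stretched control libraries stood above all other 9. Psmd2 had 133, 133 and 131 FPKM in stretched Wnt5a siRNA, 158, 149 and 145 in stretched control, 122, 128 and 126 in unstretched Wnt5a siRNA and 109, 108 and 109 in unstretched control libraries, a difference of -0.39 ± 0.07 (adjusted p = 0.00474). These 3 also passed after rescaling, with adjusted p of 0.00752, 0.00664 and 0.0184. Psmc4, at 111, 119 and 106 FPKM in stretched Wnt5a siRNA and 104, 95.3 and 98.0 in unstretched Wnt5a siRNA libraries, had a difference of -0.34 ± 0.10 (adjusted p = 0.0254) that did not pass after rescaling (-0.23 ± 0.09, adjusted p = 0.0837).

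Among the activators the difference ran both ways. Psme1 had 247, 253 and 268 FPKM in stretched Wnt5a siRNA and 291, 247 and 331 in unstretched Wnt5a siRNA libraries, overlapping ranges, and a difference of 0.59 ± 0.19 (adjusted p = 0.0426). Psme4 had 45.7, 47.3 and 51.7 FPKM in stretched Wnt5a siRNA and 53.4, 44.6 and 55.8 in unstretched Wnt5a siRNA libraries, again overlapping, and a difference of 0.47 ± 0.13 (adjusted p = 0.0225). Psmf1 had a difference of 0.43 ± 0.14 (adjusted p = 0.0435). For these 3 genes the unstretched control libraries were higher than all libraries of the other groups. Psme3 had 43.1, 43.8 and 39.8 FPKM in stretched Wnt5a siRNA and 41.7, 46.1 and 43.3 in unstretched Wnt5a siRNA libraries, and its difference was negative, -0.44 ± 0.09 (adjusted p = 0.00701). All 4 passed after rescaling. With the replicate number as a block, Psme4 (adjusted p = 0.0188) was the 1 positive difference that passed, while Psme1 (adjusted p = 0.0598) and Psmf1 did not. The 3 positive differences were all lost without stretched Wnt5a siRNA library 3, stretched control library 1 or unstretched control library 3, and Psme4 alone of the 3 passed without stretched Wnt5a siRNA library 1, unstretched Wnt5a siRNA library 1 or unstretched control library 1 or 2.

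**Figure D3:**
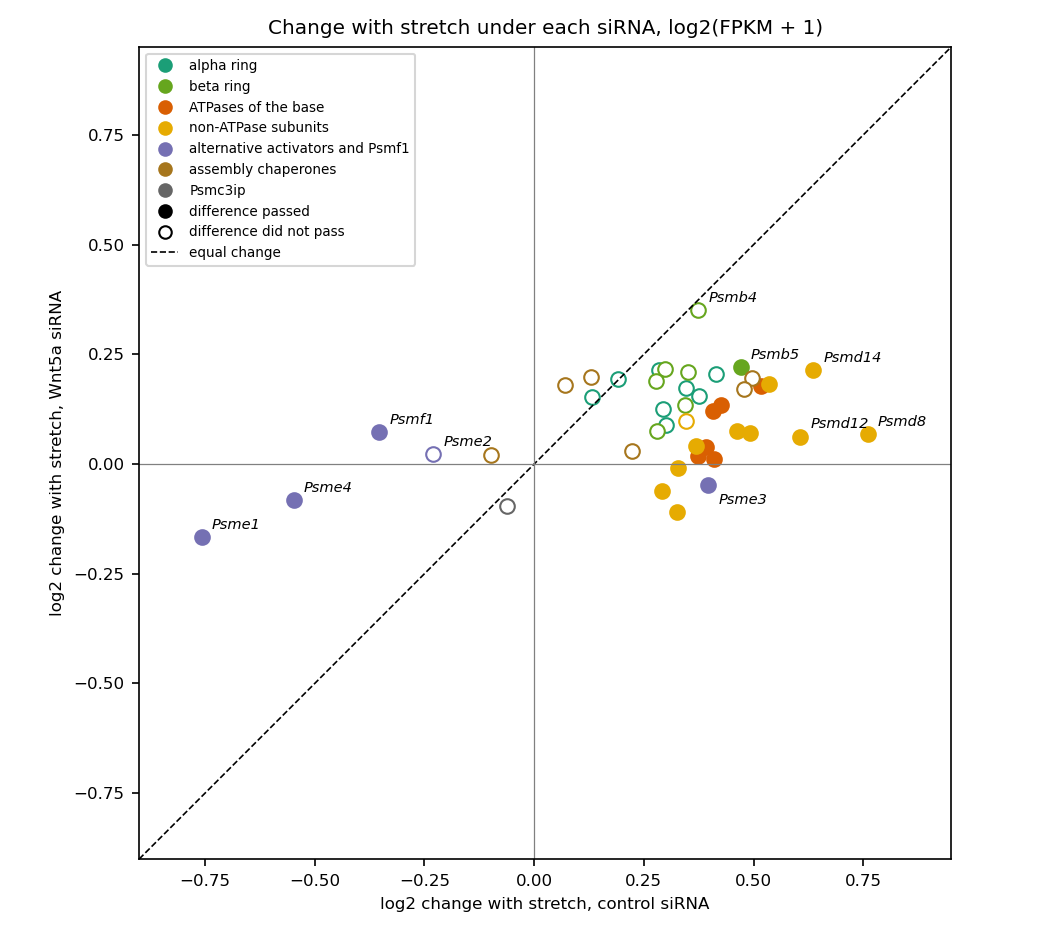
Log2 change with stretch in Wnt5a siRNA cells (vertical axis) against that in control siRNA cells (horizontal axis) for the 44 tested members. Each point is a gene, filled where the difference between the changes passed the test (21 genes), and the dashed line marks equal change. The comparisons share no libraries, and the cap subunits lie below the line.

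**Figure D4:**
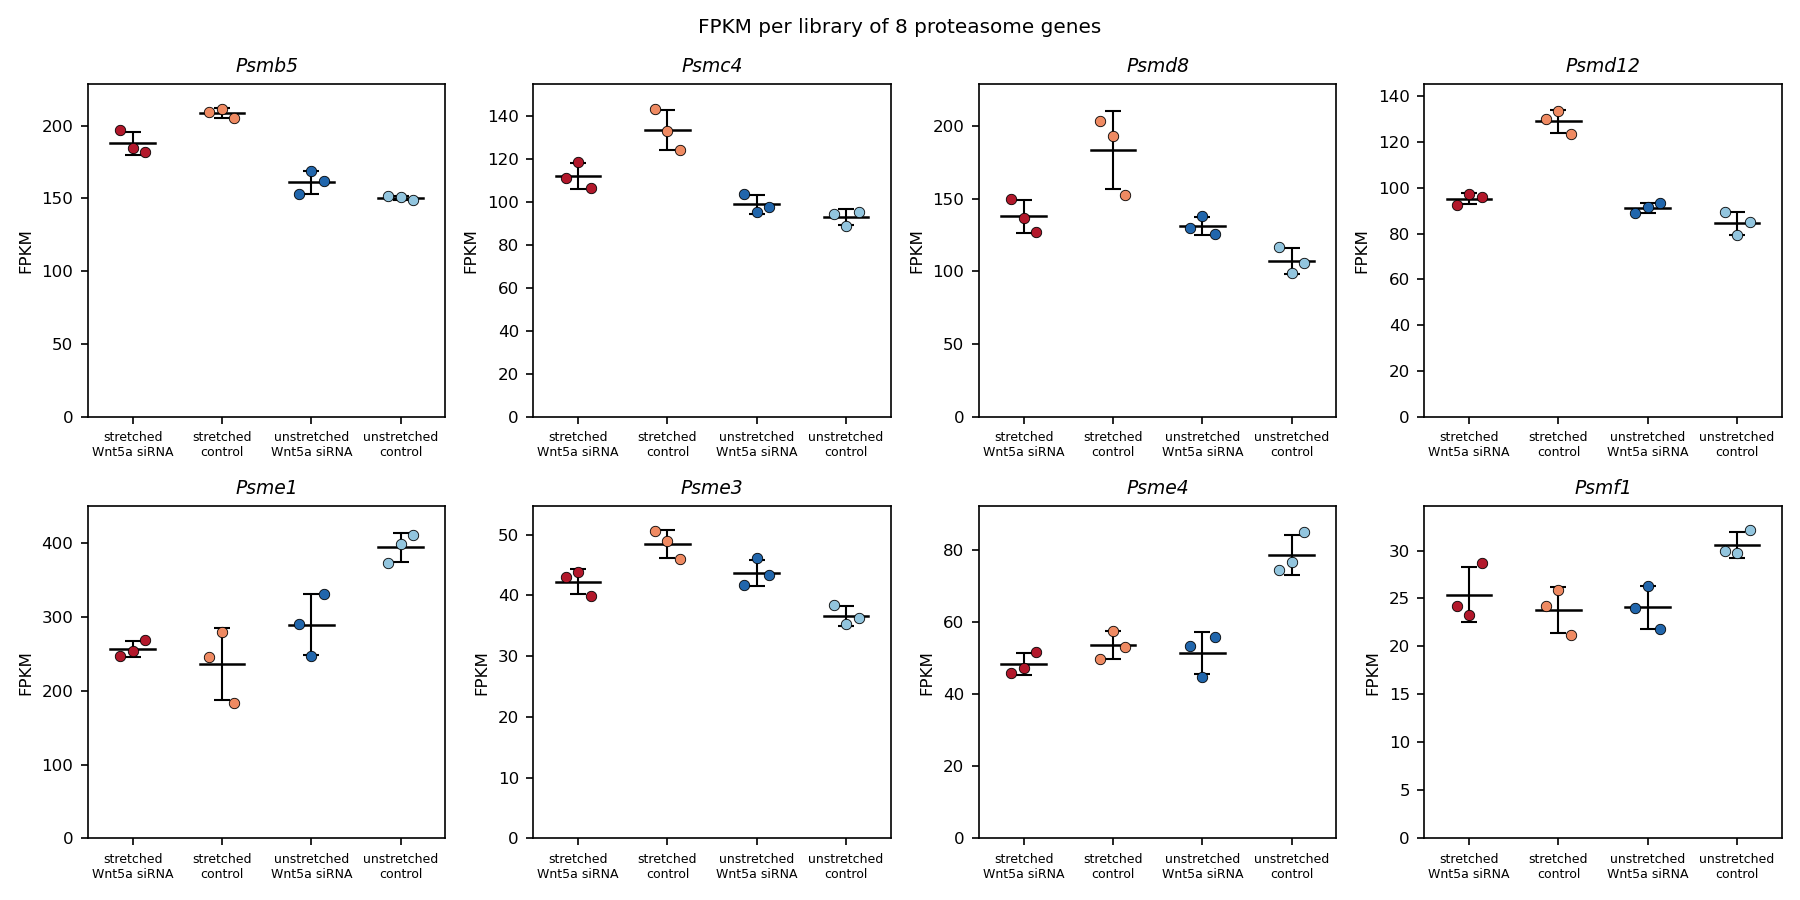
FPKM of 8 members in each library (points) with the group mean (bar) and SD (error bar). Psmc4, Psmd8 and Psmd12 are highest in the stretched control libraries, and Psme1, Psme4 and Psmf1 are highest in the unstretched control libraries.

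The siRNAs were also compared at each state of stretch. With stretch, 15 members were lower in Wnt5a siRNA than in control siRNA cells, while 14.2% of all genes were lower, and 1 was higher, while 13.2% of all genes were higher. The median log2 change was -0.14 for the members and 0.00 for all genes. The 15 held 10 of the 17 cap subunits (Psmc1, Psmc4, Psmc5, Psmd2, Psmd3, Psmd4, Psmd8, Psmd12, Psmd13 and Psmd14), 3 genes of the core particle (Psma3, Psma3l and Psmb6), the chaperone Psmd5 and Psme3. Psmd12 had the largest change among the cap subunits, -0.43 ± 0.06 (adjusted p = 0.00160), followed by Psmd8 with -0.40 ± 0.10 (adjusted p = 0.0162), and their values by library are given above. Psma3 had 29.0, 22.5 and 22.9 FPKM in stretched Wnt5a siRNA and 33.9, 37.8 and 30.7 in stretched control libraries, a change of -0.45 ± 0.10 (adjusted p = 0.00828). Summed with Psma3l, the change was -0.32 (adjusted p = 0.00799). Psmg4, a chaperone of the core particle, was the 1 member that was higher, with 37.3, 42.5 and 37.2 FPKM in stretched Wnt5a siRNA and 30.3, 30.7 and 33.3 in stretched control libraries, a change of 0.30 ± 0.08 (adjusted p = 0.0224) and no overlap. After rescaling 3 members were lower, Psma3, Psmd8 and Psmd12, while 7.71% of all genes were lower, and 3 were higher, Psmb1, Psme2 and Psmg4, while 21.0% of all genes were higher. Without stretched control library 3, 21 members were lower (2380 of 10518 genes) and 1 was higher (2288 genes). After rescaling 4 members were then lower (1335 genes) and 5 higher (3167 genes). The lower count was 8, 10 and 3 without stretched Wnt5a siRNA library 1, 2 and 3, and 3 and 6 without stretched control library 1 and 2, and the 1 higher call was lost without stretched Wnt5a siRNA library 2 or stretched control library 1 or 2. Wnt5a itself did not pass in this comparison, and the summed fibroblast markers were 9094 ± 309.9 FPKM in stretched Wnt5a siRNA and 5983 ± 2014 in stretched control cells (SD, n = 3 each). Of the tested markers, 6 of 9 fibroblast, 2 of 7 endothelial and 2 of 8 smooth muscle and pericyte genes were higher, and 3 of 11 cardiomyocyte and 4 of the 8 smooth muscle and pericyte genes were lower. Their part in the result was not tested.

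Without stretch, 9 members were higher in Wnt5a siRNA than in control siRNA cells, while 14.6% of all genes were higher, and 5 were lower, while 13.9% of all genes were lower. The median log2 change was 0.12 for the members and 0.00 for all genes. The 9 held 7 cap subunits (Psmc1, Psmc3, Psmc5, Psmc6, Psmd1, Psmd2 and Psmd7), Psma2 and Psme3. Psmd1, a scaffold of the base, had 94.8, 91.9 and 91.9 FPKM in unstretched Wnt5a siRNA and 75.8, 74.2 and 72.5 in unstretched control libraries, a change of 0.32 ± 0.06 (adjusted p = 0.00279) and no overlap. Psma2 had 182, 169.7 and 178 FPKM in unstretched Wnt5a siRNA and 148, 148 and 154 in unstretched control libraries, a change of 0.24 ± 0.07 (adjusted p = 0.0278). The 5 lower members were Psma3, Psma6, Psme1, Psme4 and Psmf1. Psma3 summed with Psma3l did not pass (-0.13, adjusted p = 0.199, and -0.12, adjusted p = 0.218, after rescaling). Psme4 had 53.4, 44.6 and 55.8 FPKM in unstretched Wnt5a siRNA and 74.4, 76.5 and 84.8 in unstretched control libraries, the change with the smallest adjusted p of the members, -0.61 ± 0.09 (adjusted p = 0.00106). Psme1 had 291, 247 and 331 FPKM in unstretched Wnt5a siRNA and 373, 399 and 411 in unstretched control libraries, a change of -0.45 ± 0.14 (adjusted p = 0.0262). Neither overlapped between the groups. After rescaling 10 were higher, 8 of them among the 9, and the same 5 were lower, while 14.6% of all genes were higher and 13.1% lower. Without stretched control library 3, 13 members were higher (2000 of 10518 genes) and 5 lower (1935 genes). After rescaling 15 members were then higher (1980 genes) and 5 lower (1752 genes). The higher count was 3 and 5 without unstretched Wnt5a siRNA library 1 and 3, and 5, 2 and 4 without unstretched control library 1, 2 and 3. The lower count was 2, 3 and 3 without unstretched Wnt5a siRNA library 1, 2 and 3, and 2 without unstretched control library 2 or 3. The summed fibroblast markers were 5352 ± 143 FPKM in unstretched Wnt5a siRNA and 3687 ± 258 in unstretched control cells (SD, n = 3 each). By gene, 3 of 9 fibroblast markers were higher and 1 lower, with a median log2 change of 0.12, and 5 of 9 macrophage and leukocyte markers were lower. Of 11 cardiomyocyte markers 4 were lower and 1 higher. The higher one was Myh7, at 1714 ± 260 FPKM in unstretched Wnt5a siRNA and 751 ± 86.9 in unstretched control cells, a log2 change of 1.18. Of 8 smooth muscle and pericyte markers 2 were higher and 0 lower. Their part in the result was not tested.

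Other genes of the ubiquitin-proteasome pathway were read from a list of 53 genes outside the members, of which 48 were listed in the data and 47 tested, 3 of them the interferon-induced subunits. The assembly factor Pomp was listed at 0 in every library, which can be a failed estimate. Of the 44 tested genes without those subunits, 23 rose and 6 fell with stretch and control siRNA, with a median log2 change of 0.20, and after rescaling 11 rose and 11 fell. Of all tested genes 27.5% rose and 26.8% fell, and after rescaling 13.8% rose and 42.8% fell. Of 13 deubiquitinases, shuttle receptors and other partners of the proteasome 7 rose, and of 8 genes listed as transcription factors of proteasome genes or as their activators 6 rose. The 8 were Nfe2l2, Mafg, Maff, Mafk, Ngly1, Vcp, Nploc4 and Ufd1l, and Nfe2l1 was not among them. After rescaling 5 of the 13 rose and 2 fell, and 4 of the 8 rose. With stretch, 15 of the 44 were lower and 2 higher in Wnt5a siRNA than in control siRNA cells, while 14.2% of all genes were lower and 13.2% higher, and after rescaling 6 were lower and 3 higher (7.71% and 21.0% of all genes). The difference between the changes was lower for 10 and higher for 1 (12.1% and 11.7% of all genes), and after rescaling for 6 and 1 (7.75% and 15.3%). Usp14, a deubiquitinase that binds the cap, had 81.0, 82.7 and 79.8 FPKM in stretched control and 57.5, 54.1 and 57.2 in unstretched control libraries, a change of 0.52 ± 0.06 (adjusted p = 1.26e-05). Rad23b, a receptor that shuttles ubiquitin-marked proteins to the cap, had 115, 109.7 and 123 FPKM in stretched control and 78.8, 81.1 and 78.0 in unstretched control libraries, a change of 0.54 ± 0.06 (adjusted p = 2.31e-05). Zfand2a, a partner of the proteasome under stress, had 25.8, 26.8 and 26.6 FPKM in stretched control and 14.2, 11.8 and 12.5 in unstretched control libraries, a change of 0.99 ± 0.08 (adjusted p = 3.37e-06). Groups did not overlap in these genes. Rps27a, which encodes ubiquitin fused to a ribosomal protein, had 954, 871 and 1077 FPKM in stretched control and 577, 607 and 600.3 in unstretched control libraries, a change of 0.70 ± 0.09 (adjusted p = 3.36e-05), and reads of its pseudogenes could be mixed in.

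A list of 7 tested ubiquitin ligases held Trim63, Trim55, Trim54 and Fbxo32, and also Stub1, Cblb and Mdm2, which are not particular to muscle. With stretch and control siRNA 5 of the 7 fell and 1, Mdm2, rose, while 26.8% of all genes fell and 27.5% rose. After rescaling 6 fell, while 42.8% of all genes did. Among the cardiomyocyte markers 4 of 11 fell in the same comparison, and 6 after rescaling, and their part in this was not tested. Fbxo32, the ligase also called atrogin-1 that marks muscle proteins for the proteasome, had 34.0, 30.7 and 44.3 FPKM in stretched Wnt5a siRNA, 17.8, 25.4 and 21.9 in stretched control, 49.4, 37.7 and 72.1 in unstretched Wnt5a siRNA and 84.2, 64.9 and 82.4 in unstretched control libraries. The stretched control libraries were the lowest. The change was -1.79 ± 0.21 (adjusted p = 2.48e-05) with control siRNA and -0.50 ± 0.21 (adjusted p = 0.129) with Wnt5a siRNA, and the difference between them was 1.29 ± 0.30 (adjusted p = 0.0103). The interferon-induced subunits, which can replace the catalytic ones, were at low levels. Psmb8 (-0.62 ± 0.18, adjusted p = 0.0118) and Psmb9 (-0.74 ± 0.12, adjusted p = 0.000324) fell with stretch and control siRNA, and Psmb10 did not pass (0.14 ± 0.15, adjusted p = 0.452).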

How the data were processed

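The series holds RNA sequencing of cultured neonatal rat cardiomyocytes, 12 libraries in 4 groups of 3 assigned by the treatment label. Per the labels' protocols, the RNA came from a miRNeasy extraction and the libraries from a TruSeq stranded mRNA kit. TopHat2 2.1.1, Bowtie2, Cuffdiff 2.2.1 and build rn6 are named in the submitters' processing notes. What was deposited is FPKM per gene symbol as the authors computed it. The sources used here give no annotation, strand setting, scaling between libraries or rule for reads that match several genes, so overlapping genes and near-identical copies are uncertain.

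Values were taken as log2(FPKM + 1), which understates changes of low genes. Genes reaching FPKM 1 in 3 or more libraries (10518) were tested, 2-sided, with limma 3.58.1 (R 4.3.3): lmFit on 4 group means over all 12 libraries, contrasts.fit, then eBayes using a trend, and Benjamini-Hochberg adjustment over these genes. The fit was tested on simulated data. No depth is known, so precision comes from the spread between libraries.

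Members and gene lists were chosen with earlier results of these data known. Members named with values are the catalytic subunits, Psmc4, those with the 2 largest and the lowest log2 change for stretch with control siRNA in each class, and the 2 with the smallest adjusted p in each other comparison. Others were named after their values were seen. Pathway genes named are those with the 5 smallest adjusted p for that stretch comparison.

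Alternatives were a pseudocount of 0.1, no filter, a filter at FPKM 5, rescaling to equal library sums, quantile normalization, a block for the replicate number, the compared groups alone, and leaving out each library. Summing Psma3 and Psma3l was added after the data were seen. Same-numbered libraries of the Wnt5a siRNA groups deviated together from their group means (correlations of 0.143 to 0.242 over 3 pairs), which was read as pairing. In other comparisons at least 1 of 3 pairs stayed under 0.1. The 2 stretched groups came close, with correlations of 0.219, 0.0947 and 0.231. The treatment labels give no pairing, so it remains uncertain.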

Additional observations from a re-analysis of the deposited data

Results flagged for a closer look

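In 21 members the log2 change under stretch was not the same with Wnt5a siRNA and with control siRNA, by the interaction term of the limma fit with an adjusted p under 0.05. Each value below is the log2 change with stretch under Wnt5a siRNA minus that under control siRNA. Among the ATPases of the cap it was -0.35 for Psmc1, -0.29 for Psmc2, -0.29 for Psmc3, -0.34 for Psmc4, -0.40 for Psmc5 and -0.35 for Psmc6. Among the non-ATPase subunits it was -0.42 for Psmd1, -0.39 for Psmd2, -0.44 for Psmd3, -0.33 for Psmd4, -0.35 for Psmd7, -0.69 for Psmd8, -0.34 for Psmd11, -0.54 for Psmd12, -0.35 for Psmd13 and -0.42 for Psmd14. The catalytic subunit Psmb5 had -0.25 and the nuclear activator Psme3 had -0.44. Positive differences were found for the activators Psme1 (0.59) and Psme4 (0.47) and for Psmf1 (0.43).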

How the results depend on the processing

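The cause of the shifts below was not tested. In the main, counts are listed where they moved by more than 1.5 times, or to or from 0. Members higher and lower with stretch and control siRNA numbered 33 and 4. The higher count was 17 after rescaling, 16 with a replicate block and rescaling, and 16 after rescaling without stretched control replicate 3. Quantile normalization gave smaller shifts, to 25 higher here and from 18 to 12 lower for the interaction. For stretch with Wnt5a siRNA the higher count of 5 became 1 after rescaling, 1 under quantile normalization, 1 with the replicate block and rescaling, and 1 after rescaling without stretched control replicate 3. The lower count of 0 became 2, 1 and 3 under rescaling, the replicate block with rescaling, and rescaling without stretched control replicate 3. The members' median of 0.11 reversed to -0.011 in these 3 rescaled settings. For Wnt5a siRNA with stretch, the higher count of 1 became 3 after rescaling, 3 under quantile normalization, 3 with the replicate block and rescaling, 0 with the compared groups alone and 5 after rescaling without stretched control replicate 3. The lower count of 15 became 3, 3, 3, 1 and 4 under these settings. For Wnt5a siRNA without stretch, the higher count of 9 became 19 under quantile normalization, 14 with the compared groups alone and 15 after rescaling without stretched control replicate 3, and the lower count of 5 became 3 under quantile normalization. For the interaction, the higher count of 3 became 1 without a filter and 1 with the replicate block, and the lower count of 18 became 10 after rescaling and 9 with the replicate block and rescaling. The replicate block alone left every other count within 1.5 times, and for stretch with Wnt5a siRNA, where the numbers were read as pairing the libraries, it called the same 5 members.

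Leaving out each library gave 33 to 34 higher and 3 to 4 lower for stretch with control siRNA, 1 to 11 and 0 to 0 for stretch with Wnt5a siRNA, 0 to 1 and 3 to 21 for Wnt5a siRNA with stretch, 2 to 13 and 2 to 5 for Wnt5a siRNA without stretch, and 0 to 3 and 13 to 22 for the interaction. Of the values of single named members under the alternatives, 2426 kept their side of the threshold, 228 no longer passed and 55 newly passed. These values cover all 5 comparisons. The 2426 include values that passed in neither fit, so they do not measure how stable the called results are. A change of sign was counted only where the value passed in either fit, and there were 0 of these. Values that passed in neither fit could change sign and still be among the 2426. Depth cannot be known from FPKM, and 3 libraries per group limit the precision.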
